A study of Arabidopsis thaliana with 36 samples.

Results

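Loss of the splicing factor SWAP1 was examined in dark-grown seedlings of Arabidopsis thaliana by setting 3 swap1 libraries against 3 wild-type (WT) libraries, 6 of the 36 libraries of the study. The swap1 group carried the allele swap1-1 in the Columbia background, and the WT group was Col-0, so every difference below belongs to 1 mutant allele. Seeds of both genotypes were chilled in darkness, given a pulse of white light to start germination, and grown in darkness for 4 days on medium without sucrose, and the seedlings then stayed dark for another 3 h. Whole seedlings were harvested, so no single organ or cell type was measured. Their RNA, freed of ribosomal RNA, was read on an Illumina instrument with reads of 150 bp. Nothing in the labels says whether the 3 libraries of each group were grown apart, and the authors' p-values then measure only the spread between these libraries. A pair of groups that shares no library with these, swap1 and WT seedlings of the same age given 3 h of red light (7 µmol photons per square metre and second), served for comparison. The other pair was the triple mutant swap1-1 sfps-2 rrc1-3 and the double mutant sfps-2 rrc1-3, both in darkness, in which swap1-1 was added to a background that already lacks SFPS and RRC1.

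Splicing joins a donor site at the start of an intron to an acceptor site at its end, and nearly all plant acceptors end in the bases AG. In plants the commonest kind of alternative splicing is retention of an intron, and the choice between neighbouring acceptors is another frequent kind. SWAP1 carries a SURP domain, a fold found in RNA-binding splicing factors. The study's title places it in a complex with SFPS and RRC1, proteins known for the splicing of transcripts under the red light receptor phytochrome B.

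The sequences of 6 short exon stretches that swap1 contained at a higher level than WT are shown first, because they hold both acceptors between which splicing can choose. They were read from the reference genome TAIR10.1 in the direction of the gene, with 25 bases before and 10 bases after the stretch. Capitals mark the stretch, and the acceptor that keeps it ends just before the capitals, while the acceptor that removes it ends with the last capital. The stretches lie at chr1:6215345-6215377 on the minus strand (AT1G18070, a translation factor of the EF1A family), chr2:629518-629538 on the plus strand (GSTZ1, glutathione S-transferase zeta 1) and chr5:14236388-14236406 on the minus strand (HCF109). The others lie at chr1:3996016-3996040 (GLX1) and chr2:14560666-14560692 (CCP1) on the plus strand and at chr3:8706336-8706344 (AT3G24120) on the minus strand. All 6 lie in coding sequence.
AT1G18070: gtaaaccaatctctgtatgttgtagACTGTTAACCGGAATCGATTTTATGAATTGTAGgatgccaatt
GSTZ1: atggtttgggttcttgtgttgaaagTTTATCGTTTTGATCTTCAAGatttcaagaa
HCF109: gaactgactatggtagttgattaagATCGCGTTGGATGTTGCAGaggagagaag
GLX1: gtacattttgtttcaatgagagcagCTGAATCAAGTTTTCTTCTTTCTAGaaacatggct
CCP1: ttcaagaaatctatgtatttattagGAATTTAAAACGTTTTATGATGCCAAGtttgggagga
AT3G24120: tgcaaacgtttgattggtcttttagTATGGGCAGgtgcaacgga

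A second set of sequences shows introns in which a junction called between swap1 and WT linked the annotated donor to an AG inside the intron. Introns of 3 regulators are shown of 9 such introns of the gene lists, chosen after their values were seen. For each, the inner acceptor is followed by the annotated one, with 30 bases up to and including the acceptor and 10 bases after it, and capitals mark the last 3 bases of the intron. In TOC1 (intron 1 of 5, plus strand) the windows lie at chr5:24675731-24675770 and chr5:24675960-24675999. In COP1 (intron 6 of 12, plus strand) they lie at chr2:13980613-13980652 and chr2:13981022-13981061, and in IAA7 (intron 3 of 4, plus strand) at chr3:8196263-8196302 and chr3:8196493-8196532. These 3 have TAG at the inner and CAG at the annotated acceptor, and none of the other 6 introns has that combination: HEMB1, ZTL, LAC7 and JMJD5 have CAG at both, LAC8 has AAG inside and TAG at its end, and RS41 has CAG inside and TAG at its end.
TOC1 inner: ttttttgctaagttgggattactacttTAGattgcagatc
TOC1 annotated: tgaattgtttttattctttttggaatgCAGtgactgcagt
COP1 inner: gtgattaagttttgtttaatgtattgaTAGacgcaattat
COP1 annotated: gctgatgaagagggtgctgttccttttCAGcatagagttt
IAA7 inner: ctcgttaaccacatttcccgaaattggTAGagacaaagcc
IAA7 annotated: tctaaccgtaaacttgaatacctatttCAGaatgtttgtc

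Values of single libraries were not used here, since the files analysed compare group with group, so neither the spread within a group nor the depth of a library can be given. A transcript was listed when its adjusted p-value in the authors' DESeq2 test was at most 0.05, and the smallest listed change was 0.585 log2 units. A splicing region was listed when it passed the authors' ASpli thresholds. A bin is a piece of an exon or an intron. Its coverage is set against that of the whole gene, and its log2 fold change is given as swap1 over WT, as are all others. An intron bin that is higher in swap1 therefore has more intron reads for the same gene output. Levels below are normalised read counts of a group, solved from the deposited mean over the 6 libraries and the fold change. They carry no error of their own and are not divided by transcript length, so they are compared within a transcript only.

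The mutated gene was checked first. SWAP1 (AT4G31200, chromosome 4, minus strand) had lower exon bins in swap1 for exons 3 and 4, and no SWAP1 transcript was called. In the authors' deposited table the bin of 1029 bases at chr4:15161965-15162993 was at -0.92 and the bin of 272 bases at chr4:15163108-15163379 was at -1.08. Intron 3 of 4, which lies between these exons, was at -1.75 (114 bases, coding, FDR 0.0211) in the authors' deposited table. The bin of intron 1, in the untranslated region, was at 0.86, and the 30-base stretch next to it, between a pair of acceptors, was at 0.68 in the authors' deposited table. Both exons were also lower when swap1-1 was added to the sfps-2 rrc1-3 background, at -0.88 and -0.93 in the authors' deposited table. SWAP1 was thus altered along its length in the libraries labelled swap1, with no call on its total level.

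RRC1 changed at both levels in swap1. Its transcript was higher in swap1, at a level of 14527 against 7925 in WT (log2 0.87, SE 0.06) in the authors' deposited table. Introns 2 and 5 of its 16 introns were lower in swap1, at -1.14 (chr5:8639488-8639662, FDR 3.18e-14) and -0.94 (chr5:8638769-8638888, FDR 3.13e-10) in the authors' deposited table. SFPS, the other partner, had neither a called transcript nor a called region.

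Introns were the largest class of called splicing regions, and most of them were higher in swap1. Of 136443 annotated introns, 2840 were called higher in swap1 and 495 lower, 2.08% and 0.363%. The higher introns lay in 2060 loci and made up 85.2% of the called ones. Their median change was 0.79 log2 units, against -0.80 for the lower ones, and the single values ran between 4.48 and -5.04 in the authors' deposited table. Several introns of 1 gene often moved together: 459 loci held at least 2 higher introns, 67 held at least 4, and 1 locus held 12. In 111 loci some introns were higher and others lower. The excess of higher introns depends on the bin evidence: of the 55 introns that the authors' junction evidence also called, 31 were higher and 24 lower in swap1.

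**Figure D1:**
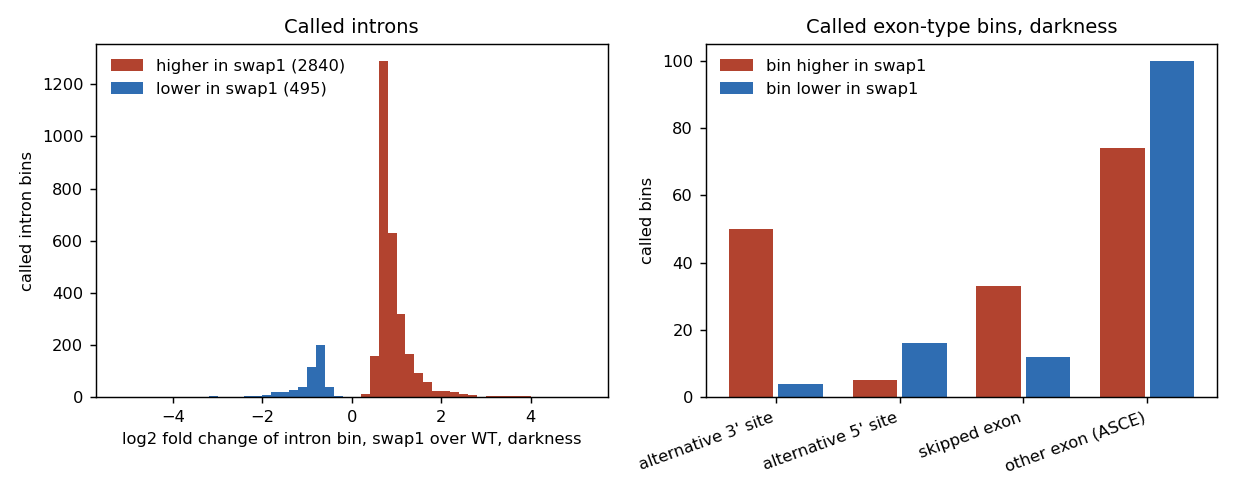
Left, number of called intron bins (vertical axis) by log2 fold change, swap1 over WT in darkness (horizontal axis, steps of 0.2), with bins higher in swap1 in red and lower in blue. Right, called bins of 4 exon classes by direction. The 2840 higher introns peak below 1 log2 unit and outnumber the 495 lower ones, and of the 54 alternative 3′ bins without an asterisk 50 are higher and 4 lower.

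The introns of lowest FDR that were higher in swap1 lay in genes of varied function. Intron 4 of ACR12, which encodes a chloroplast protein with ACT domains, was at 2.34 (374 bases, FDR 9.23e-160) in the authors' deposited table. Intron 5 of AT1G76460, an RNA-binding protein with an RRM domain, was at 2.22 (chr1:28687130-28687245, FDR 6.93e-104) in the authors' deposited table. Intron 1 of VHA-C3, a subunit of the vacuolar proton pump, was at 1.60, intron 13 of AT1G18070 at 1.72 and intron 13 of CAT2, a cationic amino acid transporter, at 1.41 in the authors' deposited table. All 5 were also higher in swap1 than WT in red light, between 1.43 and 2.73, and when swap1-1 was added to sfps-2 rrc1-3, between 0.65 and 1.33, in the authors' deposited tables. Reads of AT1G76460 may include those of its overlapping neighbour AT1G76450, since the counting was not stated to use strand.

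Larger but less certain changes were seen in introns of FRK1, a receptor kinase induced by flagellin (intron 11 of 12, 4.48, FDR 1.52e-05), and FAR4, a fatty acid reductase (intron 8 of 9, 4.40, FDR 1.33e-04) in the authors' deposited table. RKD2, an RWP-RK transcription factor, had intron 1 at 4.21 (FDR 7.50e-05), and VTE1, the tocopherol cyclase of vitamin E synthesis, had intron 8 at 3.92 (FDR 0.00377) in the authors' deposited table. Of these 4, FRK1 was also called in red light, at 1.60 by the authors' deposited table. The opposite direction was led by intron 1 of LUP2, lupeol synthase, at -5.04 in darkness and -4.09 under red light by the authors' deposited tables. MEA, a histone methyltransferase of the Polycomb group, had intron 15 of 16 at -2.70, and KEA3, a thylakoid potassium antiporter, had intron 6 of 17 at -2.51 in the authors' deposited table. The lower introns of lowest FDR were intron 7 of RIK (-0.93, FDR 4.36e-30), intron 8 of VLN3, an actin-bundling villin (-1.02, FDR 4.85e-28), and intron 4 of ATX2, a trithorax-like histone methyltransferase (-0.89, FDR 8.58e-24) in the authors' deposited table.

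Whole introns of both kinds are printed to show their splice sites, with the GT of the donor and the last 3 bases in capitals. AT1G76460 (chr1:28687130-28687245, minus strand) and FRK1 (chr2:8326748-8326845, minus strand) were higher in swap1. AT2G01460 (intron 19 of 25, chr2:210377-210454, plus strand), a nucleotide-binding protein, was lower, at -1.54 (FDR 1.44e-22) in the authors' deposited table. The first pair ends in CAG and the third in AAG.
AT1G76460: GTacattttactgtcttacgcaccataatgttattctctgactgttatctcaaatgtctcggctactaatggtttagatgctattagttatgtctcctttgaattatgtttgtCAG
FRK1: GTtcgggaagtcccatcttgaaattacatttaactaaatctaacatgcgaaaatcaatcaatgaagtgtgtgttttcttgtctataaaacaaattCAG
AT2G01460: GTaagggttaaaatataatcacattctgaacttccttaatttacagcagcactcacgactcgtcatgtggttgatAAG

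The called introns were set beside the 41117 introns of all loci with a called region, a set that includes them. Of the 2795 higher introns that equal an annotated one, 95.2% lay in coding sequence and 11.4% were the first intron, against 91.4% and 12.7% of those 41117. Of the 471 lower introns, 77.1% were coding, 21.4% lay in untranslated regions and 23.4% were first introns. Median length was 116 bases for higher and 125 bases for lower introns, against 105 bases for those 41117. A CAG acceptor ended 70.2% of the higher and 52.7% of the lower introns, against 66.0%, and AAG ended 4.22% and 12.5%, against 6.21%. The lower introns thus more often had an A, and less often a C, at the third base from the end. These shares are descriptions, and longer introns gather more reads and can be called more easily.

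Among junctions that the authors called as an unannotated alternative splice site, most kept the annotated donor and used another acceptor. There were 3327 regions of this class in 2196 loci, with a median change of 0.423 in the fraction of reads. That change has no sign in the authors' deposited table, so it does not say in which genotype the junction was used more. In 2391 of them, 71.9%, an annotated donor was joined to another acceptor, whereas 519, 15.6%, joined another donor to an annotated acceptor. Another 248 joined an annotated donor to an annotated acceptor, and 149 used neither. The authors' other classes of unannotated junctions, with 177, 231 and 85 regions, are not in these counts. The other acceptor lay upstream of the annotated one, inside the intron, in 2040 cases (85.3%), at a median of 134 bases. In swap1 against WT in red light, where no library is shared, the 3190 such regions had nearly the same makeup, with 71.8% at another acceptor and 82.2% of these upstream. The light response of WT, which shares the dark WT libraries, had 289 such regions, of which 123 used another acceptor. Only 12 of those 123 lay upstream, and the 111 downstream ones lay at a median of 8 bases.

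**Figure D2:**
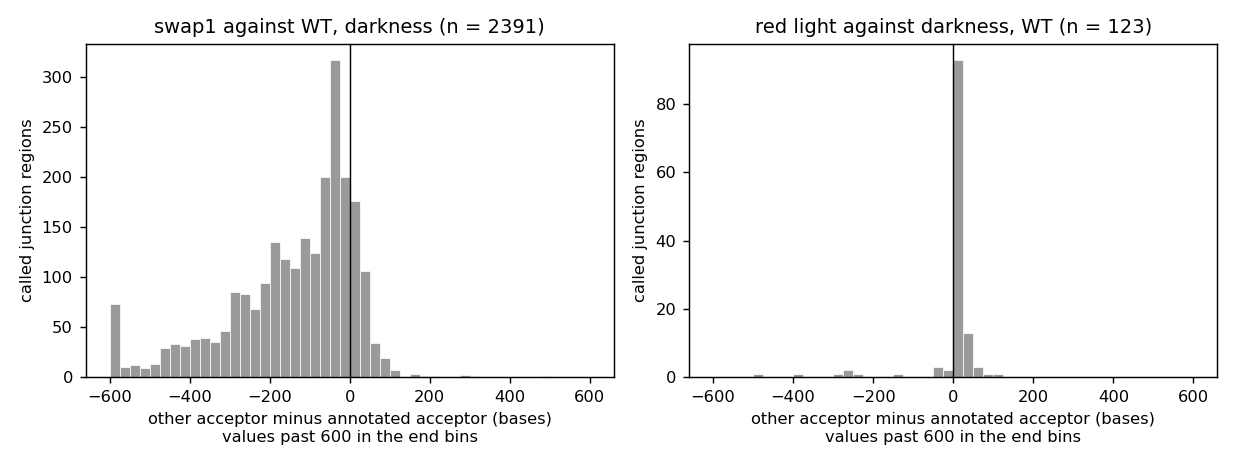
Distance in bases between the other acceptor and the annotated one (horizontal axis, negative inside the intron, steps of 25, values past 600 gathered in the end steps) for called junction regions with an annotated donor (vertical axis, number). Left, swap1 against WT in darkness (2391 regions), with 2040 upstream; right, red light against darkness in WT (123 regions), with 111 downstream.

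The bases before the AG of these other acceptors differed from both the annotated acceptors and the AGs at large. Of the 2391, 36.2% ended in CAG, 41.2% in TAG and 21.3% in AAG. Of all annotated introns 63.0% ended in CAG and 28.3% in TAG. Among all AGs inside introns 15.7% were preceded by C, 33.2% by T and 32.7% by A. The other acceptors thus lay between annotated acceptors and AGs at large in their share of CAG, whereas their share of TAG was above both.

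Many introns that were higher in swap1 held such an inner acceptor. A called junction from the intron's own donor to an AG inside it was found in 627 of the 2795 higher introns (22.4%) and in 2 of the 471 lower ones (0.425%). Among the 37851 other introns of loci with a called region it was found in 1554 (4.11%). In red light, where 5.72% of annotated introns were called, the shares were 12.3% of 7258 higher and 0.279% of 359 lower introns. In those 627 introns a higher bin may come from reads over the end part of the intron as well as from the whole, which the deposited values cannot separate. Without introns that held an inner acceptor, 2168 were higher and 469 lower.

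Of the 9 list introns with an inner acceptor, RS41 had both the highest bin value (intron 1, 1.23) and the highest junction change (0.818, at 449 bases upstream) in the authors' deposited table. TOC1, an evening component of the circadian clock, came next. Its intron 1 was at 1.08 (317 bases, FDR 2.61e-25), and the junction to the inner TAG printed above, 229 bases upstream of the annotated acceptor, changed by 0.813 in the authors' deposited table. Intron 1 was also at 1.16 in red light, whereas intron 2 of TOC1 was at -0.62 in darkness (FDR 0.00698) in the authors' deposited table. In COP1, the E3 ubiquitin ligase that represses light responses in darkness, intron 6 was at 0.68, and the junction to the TAG 409 bases upstream changed by 0.538 in the authors' deposited table. IAA7, an auxin-response repressor, had intron 3 at 0.78 and a change of 0.504 for the junction to the TAG 230 bases upstream in the authors' deposited table. The blue light receptor gene ZTL showed the same pattern in intron 1 (0.68 and a junction change of 0.425 at 437 bases) in the authors' deposited table. HEMB1 of chlorophyll synthesis (intron 3, 0.88 and 0.648), LAC7 (intron 3, 0.64 and 0.611), JMJD5 (intron 2, 0.75 and 0.444) and LAC8 (intron 2, 0.63 and 0.343) did so too in the authors' deposited table.

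Bins between a pair of annotated acceptors moved in 1 direction for the most part. Of 80 alternative 3′ bins, 26 of which the authors mark with an asterisk, 78 had an AG at both ends, and 67 of these were higher and 11 lower in swap1. A higher bin means more reads over the stretch, which splicing to the upstream acceptor keeps. Reads of a retained intron before the stretch also cover it, and the bin values do not separate these. In the 67 higher bins the upstream acceptor was CAG in 19 cases (28.4%) and TAG in 31 (46.3%), whereas the downstream one was CAG in 37 (55.2%) and TAG in 19 (28.4%). The 11 lower bins had the same order, with CAG in 4 and TAG in 5 upstream, and CAG in 5 and TAG in 3 downstream. This order was thus not particular to the higher bins. The median length of the 67 higher bins was 30 bases (3 to 353), and 26 of them were a multiple of 3 bases, which keeps the reading frame where both ends are coding. Of the 67, 50 were called in red light and all 50 were higher there, and 7 were called when swap1-1 was added to sfps-2 rrc1-3, all higher. In the 6 stretches printed above, AT1G18070 was at 2.2 (FDR 3.04e-95), GSTZ1 at 1.51, HCF109 at 1.78, GLX1 at 1.16, CCP1 at 0.66 and AT3G24120 at 0.79 in the authors' deposited table. Intron 3 of GSTZ1, which ends at its stretch, was lower at -0.44 (FDR 0.00195), while intron 13 of AT1G18070 was higher, as above, in the authors' deposited table. The AT1G18070 stretch was at 2.11 in red light and 0.87 in the sfps-2 rrc1-3 background in the authors' deposited tables. Alternative 5′ bins without an asterisk, which report the donor, were higher in 5 cases and lower in 16, while in red light 53 were higher and 12 lower. Those with an asterisk were higher in 3 cases and lower in 2, and in red light 11 were higher and 5 lower. Bins of skipped exons without an asterisk were higher in 33 cases and lower in 12, and in red light 106 were higher and 8 lower. With an asterisk 4 were higher and 1 lower, and in red light 4 were higher and 2 lower.

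The called isoform that contains a changed bin mostly moved with it at the transcript level. A called transcript containing a higher alternative 3′ stretch was higher in swap1 in 36 pairs and lower in 1 (AT3G56210.5), and each of the 3 transcripts containing a lower stretch was lower. For skipped exons, 26 transcripts containing a higher bin were higher and 0 lower, and of those containing a lower bin 2 were lower and 1 higher. For alternative 5′ stretches, 8 pairs were higher together and 5 lower together, and 1 pair ran against its bin (NRPC1, bin -1.86 and transcript 1.06 in the authors' deposited table). Bins and transcripts were counted from the same reads, so these pairs are not independent measurements. Called transcripts that do not contain the higher alternative 3′ stretch of their locus were higher in 6 pairs and lower in 3. For higher skipped exon bins these counts were 3 and 3, so isoforms without the bin did not move mainly the opposite way. Model 3 of AT1G18070 had a level of 848 in swap1 and 84.6 in WT, a change of 3.32 (SE 0.15), in the authors' deposited table. Model 3 of GSTZ1, the enzyme that isomerises maleylacetoacetate in tyrosine breakdown, had 2225 in swap1 and 410 in WT (2.44, SE 0.11) in the authors' deposited table. Model 2 of TLP2, a tubby-like protein, had 4085 in swap1 and 1039 in WT (1.97, SE 0.08), with its stretch of 32 bases at 1.38 in the authors' deposited table. Model 3 of HCF109, a chloroplast peptide release factor, was at 2.32 (SE 0.18), and model 2 of FLC, the flowering repressor, at 0.81 (SE 0.20) in the authors' deposited table. That FLC model contains a stretch at 1.45 but also a skipped exon bin at -0.72, which ran the other way, in the authors' deposited table. SKIP, a splicing factor that also acts on clock gene transcripts, had its model 2 at a level of 2118 in swap1 and 875 in WT (1.28, SE 0.10), with its stretch of 176 bases at 0.89 in the authors' deposited table. Model 4 of APX1, cytosolic ascorbate peroxidase, was at 2.65 (SE 0.18) beside alternative 5′ bins at 1.56 and 1.53 in the authors' deposited table. The adjoining intron bin, which that model also contains, was at 1.44, so these values do not single out a choice of donor.

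**Figure D3:**
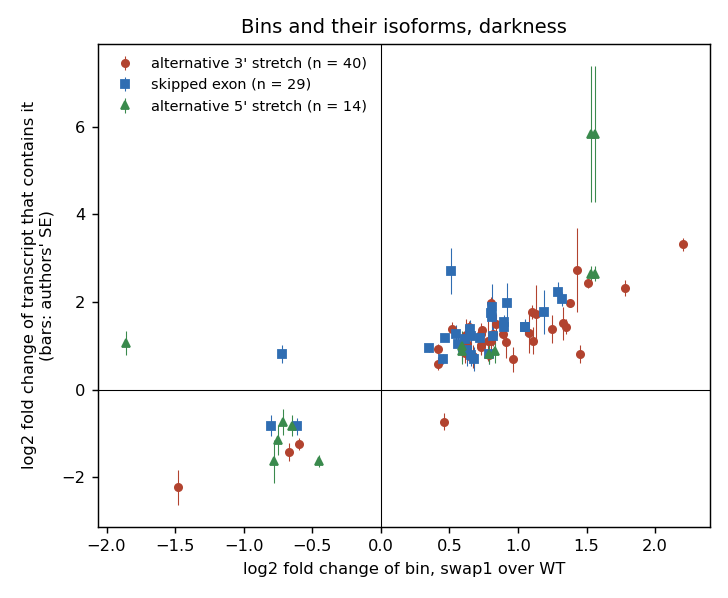
Log2 fold change of a called transcript (vertical axis, bars are the authors' standard errors) against that of a called bin it contains (horizontal axis), swap1 over WT in darkness, for 40 alternative 3′, 29 skipped exon and 14 alternative 5′ pairs. Nearly all points lie in the quadrants where both have the same sign.

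Genes for the splicing machinery were themselves among those with changed introns. Over all protein-coding loci with introns, 17.4% held a called region and 10.6% a called intron. Of 32 other splicing factors, 10 held a called region, with 15 introns higher and 0 lower in swap1. U2AF65B, a subunit of the factor that recognises the end of introns, held 6 of these, between 0.59 and 0.82 in the authors' deposited table. PRL1, a subunit of the MAC complex, held 4, between 0.61 and 1.00 in the authors' deposited table. The absence of lower introns did not extend to the authors' gene ontology term RNA splicing. Of its 33 genes, all with a called region, 18 held a higher intron and 7 a lower one. Among all loci with a called region 52.1% held a higher and 11.1% a lower intron. Of 20 SR proteins, splicing regulators rich in serine and arginine, 7 held a region, with 4 introns higher and 2 lower. RS41 had its intron 1 at 1.23 (FDR 6.18e-32), and RS40 had intron 2 at -0.59 in darkness and 0.86 in red light by the authors' deposited tables. In transcript level 2 of the 32 factors were higher and 1 lower (9.38% called), and 1 of the 20 SR proteins was higher (5.00%), where 12.8% of all protein-coding loci had a called transcript. LUC7B, a U1 snRNP protein, had 9095 in swap1 and 5109 in WT (0.83, SE 0.08) in the authors' deposited table. U2AF65A model 2 had 192 in swap1 and 701 in WT (-1.87, SE 0.14), and a bin over its intron 11 was at -1.21 in the authors' deposited table. RS31 had 13174 in swap1 and 7461 in WT (0.82, SE 0.06) in the authors' deposited table.

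The clock list held called regions in 10 of 25 loci and the list of photoreceptors and light signalling in 7 of 35. Over all protein-coding loci with introns the share was 17.4%, which also applies to the lists below. Beside TOC1 and ZTL, introns 3 and 4 of LHY, a morning repressor, were at 0.89 and 0.67 and intron 6 of PRR7 at 0.72 in the authors' deposited table. ELF3, of the evening complex, had a pair of unannotated junctions with changes of 0.562 and 0.454, and RVE4, an activator of evening genes, had a pair at 0.380 and 0.571 in the authors' deposited table. FHY1, which carries phytochrome A into the nucleus, had unannotated junctions with changes of 0.505 and 0.530, and PHOT1, a blue light receptor, had a pair at 0.357 and 0.300 in the authors' deposited table. The intron of PIF5 in the untranslated region was at -0.67 in darkness and 0.63 in red light by the authors' deposited tables. Chlorophyll synthesis held regions in 5 of 20 loci, laccases in 3 of 17, jasmonate in 2 of 13, auxin and elongation in 2 of 26, and cold and abscisic acid in 1 of 17. The lists of salicylic acid defence, camalexin, monolignols, gibberellin, antenna, flavonoids, seed storage and root hair held 0 called regions.

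At the transcript level 1779 transcripts were higher in swap1 and 2154 lower, which is 6.12% and 7.40% of the at least 29090 that the authors tested. By locus, 5.63% of protein-coding genes had a transcript called higher and 7.17% one called lower. The first model of a gene was more often lower (1386 higher, 1956 lower), whereas the other models were more often higher (393 higher, 198 lower). At an absolute log2 change of at least 1 the balance turned, with 1006 transcripts higher and 963 lower. Higher transcripts had a median change of 1.12 log2 units, against -0.93 for the lower ones.

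Laccases, the copper oxidases that polymerise lignin monomers, were lower in swap1 in 10 of 17 genes and higher in 0, and 5 of the 10 were lower by at least 1 log2 unit. Over all protein-coding loci 7.17% had a transcript called lower in darkness and 5.63% one called higher. LAC12 had a level of 20.5 in swap1 and 119 in WT (-2.54, SE 0.31), and LAC5 had 33.3 in swap1 and 155 in WT (-2.22, SE 0.30) in the authors' deposited table. The more abundant LAC7 had 13998 in swap1 and 23081 in WT (-0.72, SE 0.09), and LAC4, of xylem lignin, had 5326 in swap1 and 8123 in WT (-0.61, SE 0.10) in the authors' deposited table. In red light 8 of the 17 were lower and 0 higher, where 9.68% of protein-coding genes were lower and 7.09% higher. LAC2 combined a lower transcript (-1.02, SE 0.15) with intron 5 at 2.67 and intron 1 at -3.02 in the authors' deposited table. Among 13 genes that make the monomers 2 were lower, F5H1 at -0.77 and model 2 of 4CL1 at -0.73, and 0 higher in the authors' deposited table, and none reached 1 log2 unit.

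Defence genes moved in both directions, where 5.63% of all protein-coding loci had a transcript called higher and 7.17% one called lower. Of 20 genes of salicylic acid defence 4 were higher in swap1 and 3 lower, or 2 and 2 at 1 log2 unit or more. PR1, the secreted marker protein of this pathway, had 88.1 in swap1 and 3916 in WT in the authors' deposited table. The synthesis genes PBS3 and ICS1 lay the other way. PBS3, which conjugates isochorismate, had 2715 in swap1 and 638 in WT (2.09, SE 0.32) in the authors' deposited table. ICS1, isochorismate synthase, had 160 in swap1 and 71.0 in WT (1.17, SE 0.24) in the authors' deposited table. WRKY70 (0.63) and SAG101 (0.89) were also higher, and NUDT6 (-2.24) and WRKY54 (-0.68) also lower, in the authors' deposited table. The rest of the 20 genes were not called. In red light PBS3 was at 2.28 and PR1 at -5.47 by the authors' deposited table. Of 16 camalexin and indole glucosinolate genes 4 were lower and 0 higher, among them CYP83B1 with 8544 in swap1 and 13709 in WT (-0.68, SE 0.08) and CYP81F2 with 511 in swap1 and 1126 in WT (-1.14, SE 0.13) in the authors' deposited table. None of 13 jasmonate genes was called in either direction by DESeq2, and values that missed the authors' threshold are not analysed here.

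Growth and photosynthesis genes were also called, where 5.63% of all protein-coding loci had a transcript called higher in darkness and 7.17% one called lower. Of 17 gibberellin genes 4 were higher and 1 lower, or 2 and 1 at 1 log2 unit or more. GA20OX2, which makes gibberellin precursors, had 1119 in swap1 and 393 in WT (1.51, SE 0.13), and GA3OX1, which makes the active hormone, had 3989 in swap1 and 2192 in WT (0.86, SE 0.07) in the authors' deposited table. The antenna list had 9 of 20 genes lower and 0 higher, 4 of them by at least 1 log2 unit. An example is LHCB6 with 25776 in swap1 and 44621 in WT (-0.79, SE 0.09) in the authors' deposited table. The 4 antenna genes past 1 log2 unit are LHCB1.1 to LHCB1.4, near-identical copies whose values are uncertain one by one. Of 20 chlorophyll genes 7 were lower and 1 higher, and 1 of these reached 1 log2 unit. This was DVR, a divinyl reductase, with 1478 in swap1 and 4152 in WT (-1.49, SE 0.10) in the authors' deposited table. In the flavonoid list 9 of 18 genes were lower and 1 higher, and PAP1, an anthocyanin regulator, had 291 in swap1 and 913 in WT (-1.65, SE 0.17) in the authors' deposited table. In red light the antenna list had 1 lower, the chlorophyll list 2 higher and 0 lower, and the flavonoid list 3 higher and 5 lower.

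Of 25 clock genes 7 were higher and 4 lower in swap1, or 4 and 3 at 1 log2 unit or more. Among all protein-coding loci 5.63% had a transcript called higher and 7.17% one called lower. Those higher included evening genes, such as GI with 28102 in swap1 and 13049 in WT (1.11, SE 0.08) and TOC1 with 31383 in swap1 and 14866 in WT (1.08, SE 0.06) in the authors' deposited table. Those lower included morning genes, such as CCA1 with 671 in swap1 and 1645 in WT (-1.29, SE 0.09) and RVE8 with 369 in swap1 and 804 in WT (-1.12, SE 0.12) in the authors' deposited table. Of 35 light signalling genes 3 were higher and 2 lower, or 1 and 2 at 1 log2 unit or more, and of 26 auxin genes 1 was higher and 1 lower, or 1 and 0. These are 14.3% and 7.69% of the lists, near or below the 12.8% of all protein-coding loci with a called transcript. Model 2 of IAA7, which contains the intron with the inner acceptor, had 2455 in swap1 and 934 in WT (1.39, SE 0.09) in the authors' deposited table. Of 17 cold and abscisic acid genes 6 were higher and 3 lower, or 3 and 3 at 1 log2 unit or more. In red light 0 of these 17 were higher and 3 lower. In darkness CBF1, an activator of cold genes, was at 1.37 (SE 0.30) and RAB18, a dehydrin, at -1.25 (SE 0.35) in the authors' deposited table.

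**Figure D4:**
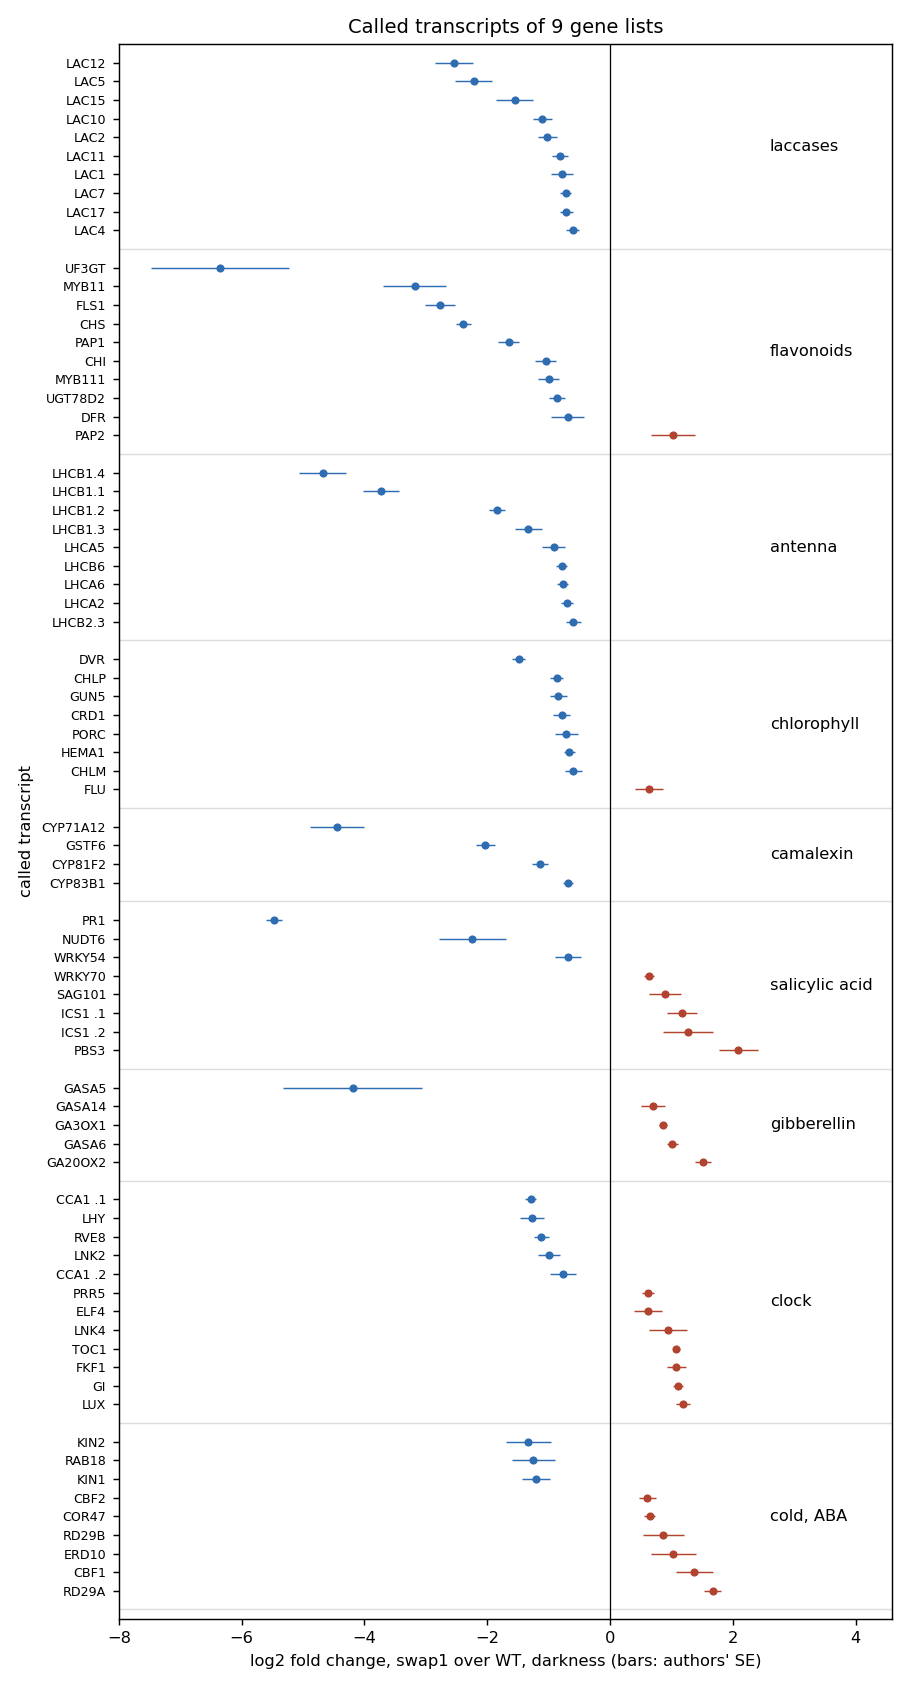
Log2 fold change of each called transcript of 9 gene lists (horizontal axis, bars are the authors' standard errors), swap1 over WT in darkness, one row per transcript (vertical axis), higher in red and lower in blue. All 10 called laccases and all 9 called antenna genes lie left of 0, while the clock list has 7 genes on the right and 4 on the left.

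Some markers of embryo and root hair tissue were called too, where 5.63% of all protein-coding loci had a transcript called higher and 7.17% one called lower. The seed storage genes, which mark embryo tissue, had 4 of 12 lower in swap1 and 0 higher, with OLEO1, an oil body protein, at 67.1 in swap1 and 265 in WT (-1.98, SE 0.28) in the authors' deposited table. Of 6 root hair genes 1 was higher, EXPA18, an expansin, with 449 in swap1 and 236 in WT (0.93, SE 0.19) in the authors' deposited table. At 1 log2 unit or more the root hair count was 0. In whole seedlings fewer cells of a type and less RNA per cell cannot be told apart, and the part of these tissues in the other results was not tested.

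Outside the lists, the calls of lowest adjusted p-value among lower transcripts included a pair of neighbouring peroxidase genes. AT5G64120 had 13777 in swap1 and 76830 in WT (-2.48, SE 0.08), and AT5G64110 had 1060 in swap1 and 17672 in WT (-4.06, SE 0.14) in the authors' deposited table. AT3G29970, a B12D protein, had 1236 in swap1 and 9199 in WT (-2.90, SE 0.09), and the cysteine protease AT4G11320 had 2499 in swap1 and 20233 in WT (-3.02, SE 0.10) in the authors' deposited table. These 4 were also lower in swap1 in red light, between -2.79 and -4.03 by the authors' deposited table. Among the higher ones, GRXS13, a glutaredoxin, had 3294 in swap1 and 868 in WT (1.92, SE 0.09) in the authors' deposited table. AT5G27845, annotated as a pseudogene, had 1521 in swap1 and 48.7 in WT, and AT2G01422, annotated as a non-coding RNA, had 377 in swap1 and 21.4 in WT in the authors' deposited table.

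Of loci with a called transcript 642 also held a called splicing region, 16.7% of these loci, where 17.4% of all protein-coding loci with introns held one. The first share counts every locus with a called transcript, also those that are not protein-coding or lack introns. These shares are therefore not matched and do not show whether the overlap is large or small. The 642 were 16.2% of the loci with a region. Loci with a higher intron had a higher transcript in 153 cases and a lower one in 188, and 16.4% of them had any called transcript, where 12.8% of all protein-coding loci had one. A higher intron thus went with no single direction of the transcript. KEA1, an envelope potassium antiporter, had 8 of its 20 introns higher, between 0.77 and 1.67, and a transcript level of 3201 in swap1 against 9731 in WT (-1.60, SE 0.09) in the authors' deposited table. AT5G64110 had introns 1 and 2 at 1.3 and 1.69 with a lower transcript, as above, in the authors' deposited table. TOC1 combined its higher intron 1 with a higher transcript. EGY3, a chloroplast protein related to proteases, had 1959 in swap1 and 650 in WT (1.59, SE 0.08) and its last intron at -0.86 in the authors' deposited table.

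The effect of swap1 on introns recurred in groups that share no library. Between darkness and red light 1293 called introns were shared, 38.8% of the dark list and 16.6% of the red list. Over all annotated introns 5.72% were called in red light and 2.44% in darkness. Of these 1293, 95.5% had the same direction, 1132 being higher in both and 103 lower in both. Most called introns were higher in each list (7426 higher and 373 lower in red light), so much of the agreement follows from that balance. When swap1-1 was added to sfps-2 rrc1-3 in darkness 0.369% of annotated introns were called. There 193 of the dark introns were called again, 5.79% of the dark list and 38.4% of the other, and 97.9% had the same direction. The authors' bin threshold was stricter in that table, so its shorter list does not by itself show a smaller effect.

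Transcripts agreed in direction between the lights to a similar extent, with a set of exceptions. In red light 17.5% of transcripts were called, and 2170 were called in both, 55.2% of the dark list and 42.2% of the red list. Of these 96.6% had the same direction. The difference between the changes, tested with the deposited standard errors (two-sided normal test, Benjamini-Hochberg (BH) adjusted), was called for 273 transcripts, 12.6% of those in both. Of the 273, 132 changed less in darkness, 67 changed more, and 74 changed in opposite directions. In 64 of those 74 the transcript was lower in swap1 in darkness and higher in red light.

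Transcripts of the chloroplast genome made up a visible share of these reversals. In darkness 20 were lower in swap1 and 1 higher, whereas in red light 18 were higher and 4 lower. Over all transcripts 6.12% were higher and 7.40% lower in darkness, and 17.5% were called in red light. How many chloroplast transcripts were tested is not known. The 1 higher in darkness, ATCG01200, had 484 in swap1 and 10.7 in WT (5.50, SE 1.04) in the authors' deposited table. All 10 chloroplast transcripts that were called in both lights were lower in darkness and higher in red light. ATCG00510 gave the widest gap, at -2.47 (SE 0.61) in darkness and 3.73 (SE 0.51) in red light by the authors' deposited tables. ATCG00590 was at -1.89 in darkness and 2.83 in red light, and ATCG00530 at -0.65 in darkness and 1.43 in red light by the authors' deposited tables. Chloroplast RNA mostly lacks long poly(A) tails and was kept here by ribosomal depletion. The depth and depletion of each library are unknown, and their part in these changes was not tested.

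**Figure D5:**
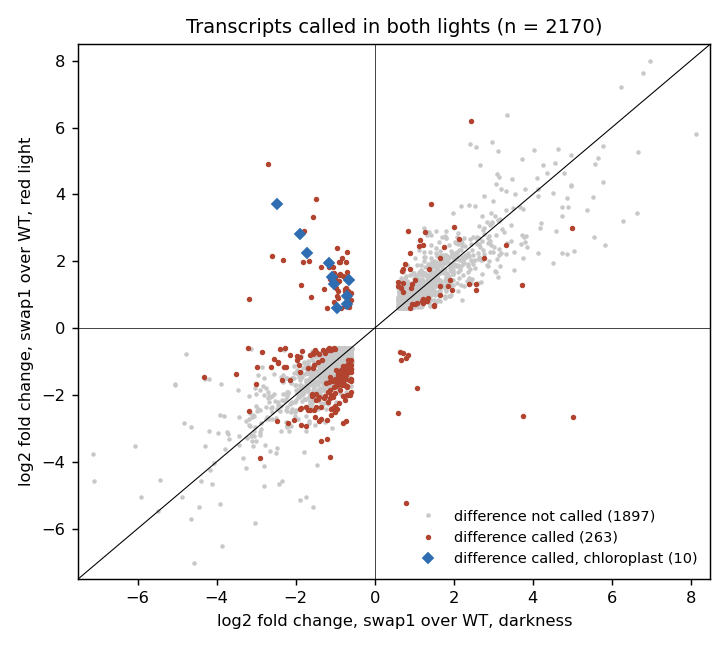
Log2 fold change, swap1 over WT, of the 2170 transcripts called in both lights, in darkness (horizontal axis) and in red light (vertical axis), with the line of equal change. Grey, difference not called (1897); red, difference called (263); blue diamonds, difference called and encoded in the chloroplast (10), all in the quadrant lower in darkness and higher in red light.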

How the data were processed

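The members of the gene lists, the tests and the alternatives were chosen with earlier results of these data known. Per the submitters' processing notes FastQC, STAR, HTSeq and DESeq2 were used with the build TAIR10, and the design text adds ASpli 2.0. How reads were assigned to transcripts is not given in the sources used. The authors deposited, per called transcript, a base mean, which is a normalised signal, a log2 fold change with its standard error, and a p-value raw and adjusted. Per the file headers the splicing tables hold a bin log2 fold change with its FDR, a kind of adjusted p-value, and junction changes given without a sign. The deposited gene ontology tables give for each term an enrichment ratio and its adjusted p-value.

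No per-library value was used, so the authors' calls were counted. The headers do not fix the sign of the expression fold changes: over 535 transcripts called in all 4 expression comparisons, 1 choice of signs closed the loop to a median of 0.00302 log2 units and the next best to 0.628, so the genotype tables were turned to swap1 over WT. Group levels were solved from base mean and fold change, and the WT dark level differed by a median of 0.149 log2 units from that of the light table (1358 transcripts). Introns, splice sites and sequences came from the RefSeq annotation of TAIR10.1, and 97.9% of called intron bins equalled an annotated intron. The share of introns called is over all annotated introns, since the number tested is not known. The number of transcripts tested is a lower bound from ranks and adjusted p-values.

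The difference between darkness and red light was scaled by its standard error (the root of the sum of both squared errors), with a two-sided normal p-value, BH adjusted over the 2170 transcripts, and this was tested on simulated data. Named transcripts were the 6 of largest change in each direction (base mean of at least 50), the 6 of lowest adjusted p-value, called list members and the 8 loci of lowest adjusted p-value called both ways; introns were named likewise (FDR of at most 0.01 for the largest). The stretches and inner acceptors printed, and the isoform examples, were chosen after their values were seen. Python 3.11.15 with numpy 2.4.6, pandas 2.3.3 and scipy 1.17.1 was used. The alternatives are given at the end.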

Additional observations from a re-analysis of the deposited data

Results flagged for a closer look

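The change in swap1 differed between darkness and red light, by the two-sided normal test of the difference (BH adjusted), for 12 transcripts of lowest p-value, 6 in each direction. AT4G25580, a CAP160 protein, was at 0.59 in darkness and -2.53 in red light, a difference of 3.12 (BH p = 2.12e-94), in the authors' deposited tables. ADH1, alcohol dehydrogenase, was at -0.95 and -2.41 (difference 1.47), and HB1, a hemoglobin, at -1.13 and -2.09 (difference 0.96) in the authors' deposited tables for darkness and red light. Both are known as genes of the response to low oxygen. MBD11 (difference 1.36), the chaperone-like AT4G02450 (1.70) and the peroxidase AT5G19890 (1.56) were also more positive in darkness in the authors' deposited tables.

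In the opposite direction, AT3G58193, a small nucleolar RNA, was at -1.79 in darkness and 2.90 in red light, a difference of -4.69 (BH p = 1.94e-33), in the authors' deposited tables. CHS (TT4), chalcone synthase, gave a difference of -1.75, being lower in swap1 in both lights. The remaining 4 belong to the chloroplast genome, with differences of -2.35 (ATCG00600), -1.55 (ATCG00690), -1.42 (ATCG01090) and -1.68 (ATCG00040) in the authors' deposited tables.

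Of the list members called in both lights, MYB11 (-3.18 in darkness, 0.87 in red light), model 2 of 4CL1 (-0.73 and 1.11) and COR47 (0.65 and -0.96) changed in opposite directions in the authors' deposited tables.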

How the results depend on the processing

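At an absolute log2 change of at least 1 there were 1969 transcripts (1006 higher, 963 lower), 886 introns (753 higher, 133 lower), 141 light differences, 263 loci called both ways, 16 introns shared with the sfps-2 rrc1-3 background and 51 list members (15 higher, 36 lower, against 32 and 60). Introns with bin and junction evidence numbered 55 (31 higher, 24 lower). Standard errors enlarged by the planned factor left 115 light differences, and 402 loci had both a called transcript and a called intron. Column names taken literally reverse all 3933 transcripts (2154 higher, 1779 lower). The other settings kept each count within 1.5 times: for transcripts 3223 (adjusted p of at most 0.01), 3724 and 3066 (base mean of at least 10 and 50), 3850 (loci) and 3342 (first models, chosen after seeing the data); for introns 2228 (FDR of at most 0.01), 3266 (annotated), 2389 (loci) and 2637 (without inner acceptors, chosen after seeing the data); for light differences 204 (BH p below 0.01) and 261 (base mean of at least 50). The introns shared with the sfps-2 rrc1-3 background numbered 174 at the stricter FDR, and called list members 86 at a base mean of at least 50. Of 36 list counts, 12 moved by more than 1.5 times, each at the limit of 1 log2 unit: salicylic acid, laccases, monolignols, gibberellin, antenna, chlorophyll, clock, light signalling, auxin, SR proteins (1 to 0), the mutated genes (1 to 0) and root hair (1 to 0). No paired analysis was possible because the files hold comparisons of groups and no value of a single library, and leaving out each replicate was not run for the same reason. Depth per library is unknown.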

Other observations

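Among genes with called splicing regions, the term DNA repair held 62 genes in the authors' deposited gene ontology table (adjusted p-value 1.54e-05), of which 44 had a higher intron and 4 a lower one. Every locus counted here holds a called region, and of all loci with a called region 52.1% held a higher and 11.1% a lower intron. UBC2, a ubiquitin-conjugating enzyme, had intron 1 at 1.55, and ATLIG4, the ligase that joins broken DNA ends, had intron 4 of 25 at 1.12 in the authors' deposited table. ATM, the kinase that signals double-strand breaks, had intron 11 of 78 at 0.86, and REV3, the catalytic subunit of a polymerase that copies past lesions, had intron 2 at 1.28 in the authors' deposited table. In transcript level 5 of the 62 were higher and 2 lower, where 5.63% of protein-coding loci had a transcript called higher and 7.17% one called lower. Protein transport (97 genes, adjusted p-value 2.25e-05) held 54 loci with a higher intron and 7 with a lower one in the authors' deposited table. TIC40, of the chloroplast import machinery, had intron 5 at 1.75, and VPS35B, a retromer subunit, had intron 15 at 1.31 in the authors' deposited table. Genes with more introns can more easily hold a called one, and the authors named no background for these terms.

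The term toxin catabolic process, which holds glutathione S-transferases, enzymes that attach glutathione to toxic compounds, did not pass in the authors' deposited table (adjusted p-value 0.159). Its 15 called genes were 13 lower and 2 higher in swap1, and the family as a whole was not counted. GSTF7 had 3564 in swap1 and 14597 in WT (-2.03, SE 0.07) in the authors' deposited table. ERD9 was at -2.45 (SE 0.18) and GSTU20 at -1.02 (SE 0.10), whereas GSTZ1 model 3 was higher, as in the report, in the authors' deposited table.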
